A study of Mus musculus with 23 samples.

Results

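Interleukin 1 (IL-1) is described here through 5 genes of a NanoString nCounter mouse myeloid panel, chosen by name from the 754 genes of the normalized table: the agonists Il1a and Il1b, the antagonist Il1rn, the signalling receptor Il1r1 and the decoy receptor Il1r2. The panel counts colour-coded probes bound to transcripts in total RNA, without amplification, and it was run on the left lungs of 23 mice. The study compared repeated instillation of organic dust extract with instillation of PBS (saline) in Fat-1 and wild-type (WT) mice. By the code on each extract there were 6 Fat-1 dust lungs (3 female, 3 male), 7 WT dust lungs (4 female, 3 male), 5 Fat-1 saline lungs (2 female, 3 male) and 5 WT saline lungs (2 female, 3 male). Fat-1 mice carry a desaturase gene of Caenorhabditis elegans that makes omega-3 from omega-6 fatty acids. All mice, controls included, had 14 instillations into the lungs and were killed under isoflurane, and fluid was washed from the airways before the left lobe was tied off. The values therefore describe lavaged tissue. The promoter of the transgene, the diet and the age of the mice stand in none of the sources used here.

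The code also records the day of extraction. Dust lungs numbered 5 on day 2 and 8 on day 1, and saline lungs 6 on day 2 and 4 on day 1. For 4 lungs the code, the title and the characteristics do not name the same group. The Fat-1 female saline lung of day 1, Fat-1 male dust lung 1 of day 1 and Fat-1 male saline lung 2 of day 2 are WT by title and characteristics, the last of them also female, and WT male saline lung 2 of day 2 is WT female dust by its title. Each result that rests on these labels is given with and without the 4 lungs where that changes it. Counts recovered from the values ran from 110453 to 812429 per lung, and counts under 20, as well as normalized values under 20 in the 5 lungs with a factor below 1, had been set to a floor of 20. At it lay 66 to 232 genes per lung. Fat-1 female dust lung 2 of day 1 stood apart from the other dust lungs, with a median correlation to them of 0.821 over 470 genes, against 0.897 to 0.963 for the others. WT female saline lung 1 of day 2 had a mean negative-control count of 19.75, against 4 to 13.6 in the others. Without both lungs all 5 IL-1 genes passed the test of dust against saline, as they did with them.

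As background, IL-1 alpha and IL-1 beta both bind the receptor encoded by Il1r1, which pairs with the accessory chain Il1rap and signals through Myd88 to NF-kappa-B. The beta form is made as an inactive precursor that caspase-1 cuts within an inflammasome, whereas the alpha precursor is already active when a damaged cell releases it. Il1rn encodes a secreted protein that occupies Il1r1 without starting a signal, and Il1r2 encodes a receptor that binds the agonists but lacks the part that signals. In inflamed lungs, macrophages, monocytes and neutrophils are known sources of IL-1 beta and of the antagonist, and IL-1 drives epithelial cells to release chemokines that draw neutrophils.

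In RefSeq's annotation of build GRCm38.p6, which held all 5 genes, Il1a (chr2:129299609-129310186) and Il1b (chr2:129364569-129371164) lie on mouse chromosome 2, as does Il1rn (chr2:24336860-24351491). Il1r1 (chr1:40222480-40316201) and Il1r2 (chr1:40084692-40125230) are on chromosome 1. The 250 bases before a start site are shown for the agonists and the antagonist, since these 3 genes had the highest log2 fold changes of the 5. For Il1a and Il1b the start site used lies inside the gene span given above, so part of each window falls within that span. Capitals mark matches, on either strand, to 5 motifs: TATAAA, the AP-1 motif TGANTCA, the PU.1 motif GAGGAA, an NF-kappa-B motif (GGG, any 5 bases, CC) and a C/EBP motif (TTGC, any 2 bases, AA). The sequences are RefSeq's, read 5′ to 3′ on the strand of the gene.
Il1a (chr2:129309973-129310222, minus strand): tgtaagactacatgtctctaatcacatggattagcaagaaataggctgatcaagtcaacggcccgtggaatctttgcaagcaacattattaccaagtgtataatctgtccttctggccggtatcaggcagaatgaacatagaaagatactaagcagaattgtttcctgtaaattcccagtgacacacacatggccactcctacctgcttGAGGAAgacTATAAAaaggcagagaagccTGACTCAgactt
Il1b (chr2:129371140-129371389, minus strand): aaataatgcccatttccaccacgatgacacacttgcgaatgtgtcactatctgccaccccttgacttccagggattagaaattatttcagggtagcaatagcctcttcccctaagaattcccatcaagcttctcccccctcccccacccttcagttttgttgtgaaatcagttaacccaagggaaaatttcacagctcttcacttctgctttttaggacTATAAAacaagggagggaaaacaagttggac
Il1rn (chr2:24336610-24336859, plus strand): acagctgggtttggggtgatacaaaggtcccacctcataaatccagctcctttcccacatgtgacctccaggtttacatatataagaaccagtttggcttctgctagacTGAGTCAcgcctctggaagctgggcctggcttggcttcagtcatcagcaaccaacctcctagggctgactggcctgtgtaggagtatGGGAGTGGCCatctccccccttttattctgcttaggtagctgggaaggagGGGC
Counted from the start site, with -1 as the base before it, TATAAA began at -32 in Il1a and at -31 in Il1b. The Il1a window also held GAGGAA at -41 and the AP-1 match at -12, none of them overlapping. The Il1rn window, 1 of 3 that the table holds for this gene, had an AP-1 match at -141 and an NF-kappa-B match at -54. The capitals at its end are the first 4 bases of a further NF-kappa-B match that runs past the start. Over 32851 windows of the same table, each reaching 50 bases past the start, 13.6% held TATAAA, 7.81% the AP-1 motif, 28.3% GAGGAA, 50.8% the NF-kappa-B motif and 10.8% the C/EBP motif. These matches describe letters only.

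The first comparison asked how IL-1 genes differed with dust exposure, averaged over the genotypes and sexes. All 5 were higher in dust lungs. In limma's test with Benjamini-Hochberg adjustment over 711 genes above the floor in at least 1 lung, 5 of 5 passed at an adjusted p under 0.05, against 43.3% of the tested genes that passed as higher. The median log2 fold change was 2.31 for the 5 genes and 0.26 for all genes tested. Fold changes are on the scale of log2(value + 1). In whole tissue, more cells of a type and more RNA per cell cannot be told apart.

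**Figure D1:**
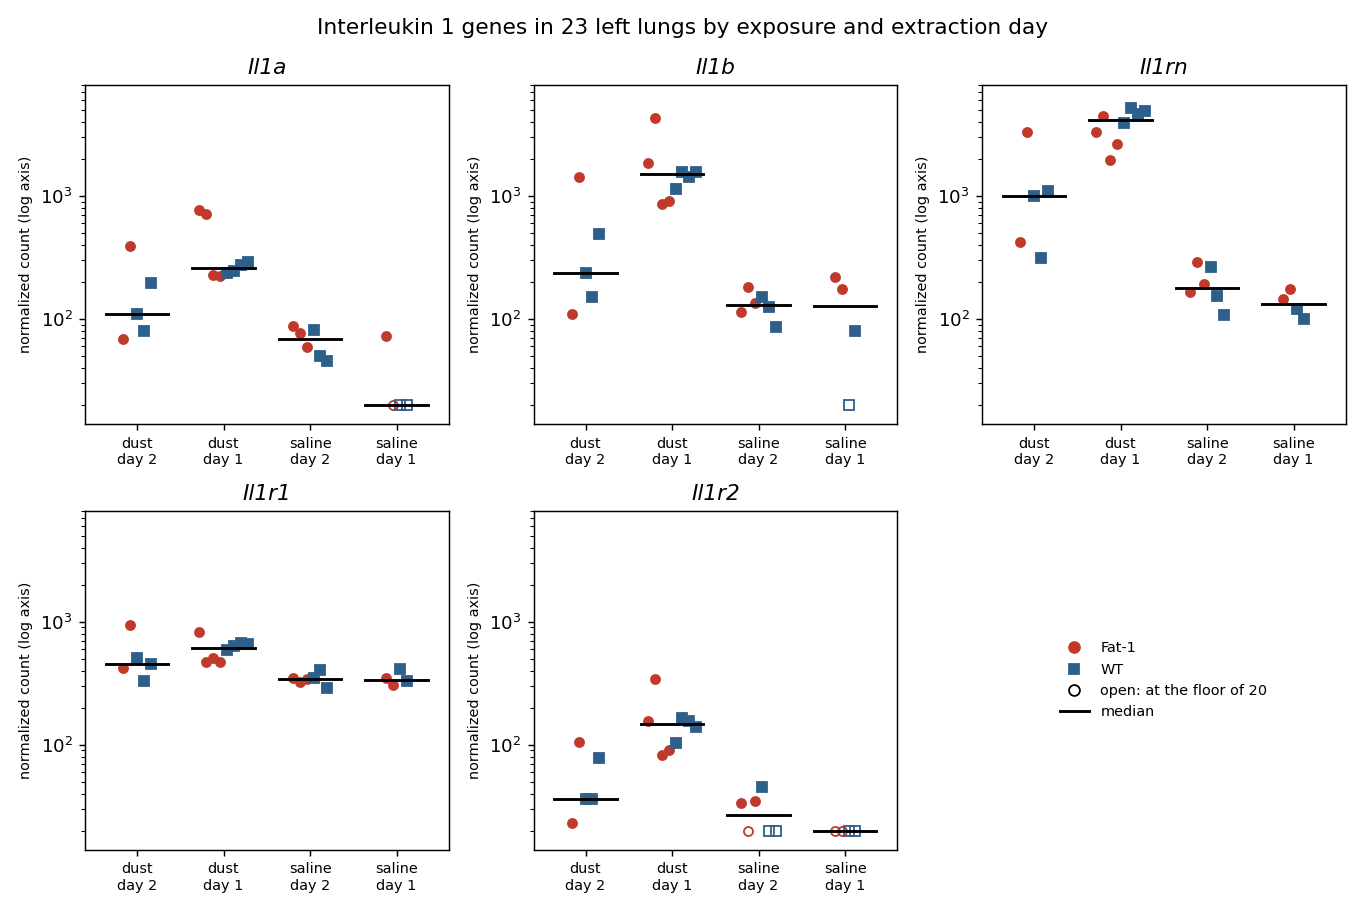
Normalized counts (log axis) of the 5 IL-1 genes in each of 23 left lungs, split by exposure and extraction day; circles are Fat-1 and squares WT lungs, open symbols lie at the floor of 20, and bars are medians. The 5 dust lungs of day 2 reach into the saline range for all genes but Il1rn, while the 8 dust lungs of day 1 lie above every saline lung for all 5 genes.

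Il1b, the agonist with a precursor that caspase-1 cuts, had 1414, 492.7, 235, 152 and 109 normalized counts in the 5 dust lungs of day 2. In the 8 dust lungs of day 1 it had 857, 1499 and 4293 normalized counts as the lowest, median and highest value. The 6 saline lungs of day 2 had a lowest, median and highest value of 86.6, 131 and 183, and the 4 saline lungs of day 1 had 219.6, 177, 79.5 and 20. Of the 13 dust lungs, 11 were above the highest saline lung, and the other 2 were both of day 2. Il1b averaged 1234 ± 1091 in dust lungs (SD, n = 13) and 129 ± 58.1 in saline lungs (n = 10), with a log2 fold change of 2.95 (adjusted p = 3.68e-04, SE 0.56), which was the ninth highest of 711 genes.

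Il1a encodes the agonist that is active without cutting. It had 392.4, 198, 111, 80.4 and 68.6 normalized counts in dust lungs of day 2. The lowest, median and highest values in dust lungs of day 1 were 223, 259.9 and 774. Saline lungs of day 2 ran from 45.8 through a median of 68.4 to 87.45, and on day 1 only the Fat-1 female saline lung, at 73.2, was above the floor. Of the dust lungs, 3 of 5 on day 2 and 8 of 8 on day 1 were above the highest saline lung. The 2 highest dust lungs were Fat-1 females 1 and 2 of day 1, at 774 and 714. The log2 fold change over all lungs was 2.31 (SE 0.40, adjusted p = 1.62e-04). It was 1.54 (adjusted p = 8.52e-04) when all values below 84.26, the lowest value measurable in every lung, were set to it.

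Il1rn, the receptor antagonist, had the second highest log2 fold change of the panel, after the chemokine Cxcl3. Dust lungs of day 2 had 3311, 1103, 996, 421 and 316 normalized counts. Dust lungs of day 1 had a lowest value of 1947, a median of 4160.1 and a highest value of 5158. The 6 saline lungs of day 2 lay between 109 and 289 with a median of 179.8, and those of day 1 had 177, 146, 119.9 and 99.9. All 13 dust lungs were above the highest saline lung. Il1rn was the only 1 of the 5 with no overlap between the exposures, as held for 3.52% of tested genes, and its lowest dust lungs, at 316 and 421 against 289 in the highest saline lung, left a narrow gap. The log2 fold change was 3.72 (SE 0.48, adjusted p = 1.58e-05).

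Il1r1, the receptor that signals, had the smallest log2 fold change of the 5. The dust lungs of day 2 had 935, 506, 452, 417 and 327 normalized counts. The lowest, median and highest values were 470.4, 613 and 830.1 in dust lungs of day 1. Saline lungs of day 2 ran from 290.35 through a median of 345 to 405, and those of day 1 had 412, 347, 329 and 303. Of the 13 dust lungs, 12 were above the highest saline lung, and the other, WT female lung 2 of day 2, lay within the saline range. The highest dust value came from the Fat-1 male lung of day 2, which had a binding density of 3.05 (spots per area of the imaged surface), against 1.32 or less in all lungs but this and WT male saline lung 1 of day 2. The log2 fold change was 0.69 (SE 0.16, adjusted p = 0.00148), and 0.30 (adjusted p = 0.0315) after each lung was centred on its median, a scaling that set the median of all genes to −0.13.

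Il1r2, the decoy, was at the floor in 7 of 10 saline lungs and in no dust lung. Dust lungs of day 2 had 106, 78.4, 36.5, 36.1 and 23.25 normalized counts, and those of day 1 had a lowest, median and highest value of 82.8, 148 and 343. In the saline lungs of day 2, 3 were at the floor and the others had 45.3, 35.2 and 33.4, and all 4 of day 1 were at the floor. Of the dust lungs, 2 of 5 on day 2 and all 8 on day 1 were above the highest saline lung. The log2 fold change of 1.90 (SE 0.37, adjusted p = 4.54e-04) depends on that floor, and it was 0.49 (adjusted p = 0.0356) with the common floor of 84.26. On day 1, dust lungs were at least 2.52-fold higher than saline lungs, with each saline lung taken at the highest value its floor can hide.

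**Figure D2:**
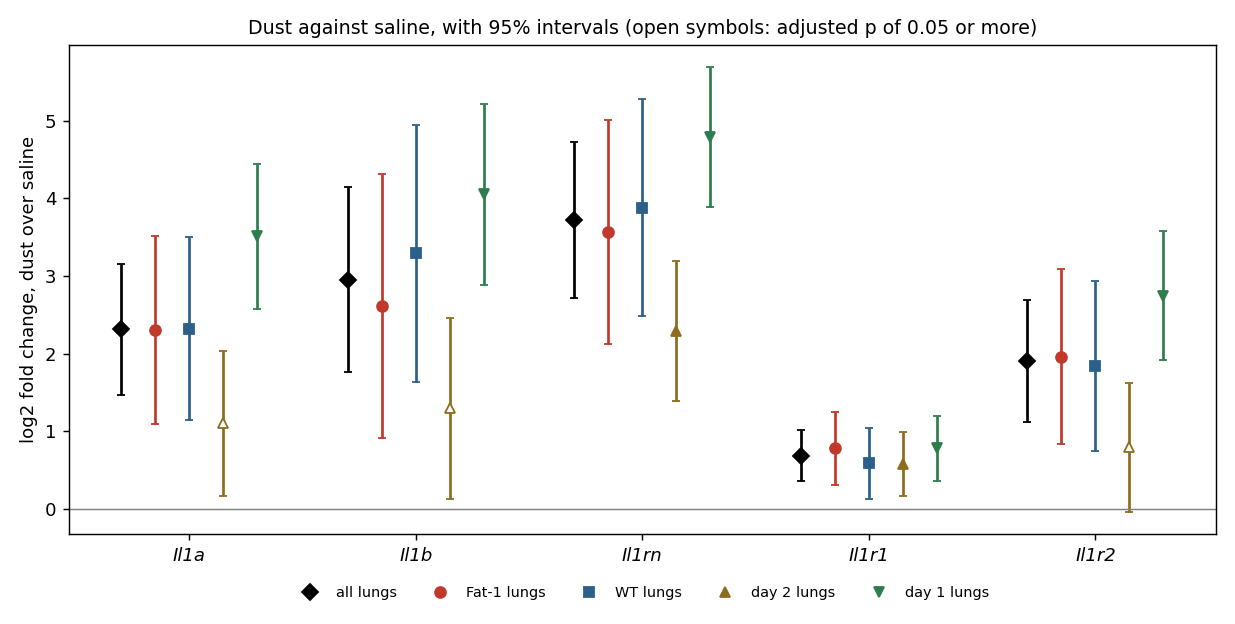
Log2 fold changes of dust over saline for the 5 IL-1 genes in all lungs, in Fat-1 and in WT lungs, and on extraction days 2 and 1; bars are 95% intervals of the limma fits and open symbols did not pass an adjusted p of 0.05. On day 2 Il1rn (2.29) and Il1r1 (0.58) passed, and all 5 genes passed on day 1, over all lungs and in each genotype.

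The next comparison set dust against saline within each genotype. In Fat-1 lungs all 5 genes passed, with log2 fold changes of 2.31 for Il1a, 2.62 for Il1b, 3.56 for Il1rn, 0.78 for Il1r1 and 1.96 for Il1r2, and 32.2% of tested genes passed as higher. In WT lungs all 5 passed too, at 2.32, 3.29, 3.88, 0.59 and 1.84 for the same genes in the same order, and 30.7% of tested genes passed. The intervals were wide, from 0.92 to 4.31 for Il1b in Fat-1 lungs and from 1.64 to 4.94 in WT lungs. Some of these calls rested on single lungs. In WT lungs Il1r1 missed the threshold in 14 of 23 fits that left out 1 lung. Without WT female saline lung 1 of day 1, the only lung with Il1b at the floor, Il1rn alone passed (3.59, adjusted p = 0.0117), and Il1b stood at 2.58 (adjusted p = 0.0539). In Fat-1 lungs Il1b missed the threshold when Fat-1 female dust lung 2 of day 1 was left out (2.07, adjusted p = 0.0554), and also when Fat-1 female saline lung 1 of day 2 was (2.38, adjusted p = 0.0801). In Fat-1 lungs Il1rn alone passed without the 4 lungs whose labels disagree, and the others were at adjusted p = 0.0676 to 0.101. With the common floor Il1r2 passed in neither genotype, and after median centring the same was so of Il1r1, at 0.39 in Fat-1 lungs and 0.20 in WT lungs.

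Whether Fat-1 and WT lungs differed was tested within each exposure. In dust lungs none of the 5 genes passed, and 0% of tested genes passed (22 had an unadjusted p under 0.05). Il1a averaged 400.0 ± 286 normalized counts in Fat-1 dust lungs (SD, n = 6) and 205 ± 81.1 in WT dust lungs (n = 7), a log2 difference of 0.63 with a 95% interval from −0.47 to 1.74. Il1b averaged 1572 ± 1456 in Fat-1 dust lungs and 944 ± 633 in WT dust lungs, a log2 difference of 0.46 (−1.09 to 2.01). For Il1rn the means were 2679.6 ± 1381 in Fat-1 dust lungs and 3005 ± 2108 in WT dust lungs, with a log2 difference of 0.01 (−1.30 to 1.32). The intervals for Il1r1 and Il1r2 were −0.33 to 0.53 and −0.88 to 1.17. When Fat-1 female dust lung 2 of day 1 and WT female saline lung 1 of day 2 were left out, the differences of Il1b, Il1rn and Il1r2 turned to −0.08, −0.31 and −0.27. Il1r1 ran from −0.0581 to 0.19 when 1 lung was left out. Il1a stayed between 0.33 and 1.20 in those fits, but its interval held both signs. These data therefore set no direction for any of the 5 genes.

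In saline lungs 0% of tested genes passed between Fat-1 and WT (10 with an unadjusted p under 0.05). Il1b averaged 166 ± 41.3 normalized counts in Fat-1 saline lungs (n = 5) and 92.7 ± 50.2 in WT saline lungs (n = 5), a log2 difference of 1.14 with an interval from −0.66 to 2.93. It ran from 0.42 to 1.85 when 1 lung was left out. WT female saline lung 1 of day 1 was at the floor for Il1b, which can hide values up to 64.8. The Fat-1 saline lungs with 219.6 and 136 are WT by title and characteristics. The other 4 genes had log2 differences from −0.10 for Il1r1 to 0.65 for Il1a. The dust difference itself did not differ detectably between Fat-1 and WT for any of the 5 genes, with 0% of tested genes passing (21 at an unadjusted p under 0.05). Fat-1 minus WT, it was −0.68 for Il1b, with an interval from −3.05 to 1.69, and 0.19 for Il1r1, with an interval from −0.47 to 0.85. Between female and male lungs the dust difference (female minus male) was −0.75 for Il1rn, −0.69 for Il1a, −0.61 for Il1r2, −0.33 for Il1r1 and −0.16 for Il1b. None passed, and 0% of tested genes did (14 at an unadjusted p under 0.05).

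The lungs were next compared by extraction day. Between dust and saline the 2 genes that passed on day 2 were Il1rn, at 2.29 (SE 0.43, adjusted p = 0.00172), and Il1r1, at 0.58 (SE 0.20, adjusted p = 0.0460), with 17.9% of tested genes passing as higher. Il1a stood at 1.11 (adjusted p = 0.0974), Il1b at 1.30 (0.118) and Il1r2 at 0.80 (0.187). Il1rn alone had all 5 dust lungs of day 2 above every saline lung, as held for 3.8% of tested genes. On day 1 all 5 genes passed, with log2 fold changes of 3.51 for Il1a, 4.05 for Il1b, 4.79 for Il1rn, 0.78 for Il1r1 and 2.75 for Il1r2, against 41.9% of tested genes that passed as higher. With the common floor Il1a was at 1.94 and Il1r2 at 0.73 on day 1, both still past the threshold, and after median centring Il1r1 was at 0.30 (adjusted p = 0.106). In each of the 5 genes all 8 dust lungs of day 1 were above the highest saline lung of either day, as held for 22.5% of tested genes.

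The day 2 values rested on single lungs. When the Fat-1 female dust lung of day 2 was left out, where Il1b had 109 normalized counts, all 5 genes passed on day 2, with Il1b at 2.22 (adjusted p = 0.00358). Without the Fat-1 male dust lung of day 2, which had the highest value of all 5 genes on that day, Il1b was at 0.38 (adjusted p = 0.837), Il1r1 at 0.29 (adjusted p = 0.461) and Il1rn at 1.54 (adjusted p = 0.0263). Il1r1 missed the threshold in 16 of the 23 fits that left out 1 lung, and after median centring it was at 0.30 (adjusted p = 0.206).

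Among dust lungs, day 2 was lower than day 1 for 3 of the 5 genes. On the log2 scale the difference was −2.22 for Il1b (adjusted p = 0.0167, SE 0.52), −2.02 for Il1rn (adjusted p = 0.00847, SE 0.40) and −1.51 for Il1r2 (adjusted p = 0.0185, SE 0.37), and 9.56% of tested genes passed as lower, a share that rests on 1 lung, as given next. Il1a was at −1.21 (adjusted p = 0.0649) and Il1r1 at −0.21 (adjusted p = 0.436). Without the Fat-1 female dust lung of day 2, 2 genes of the panel passed in either direction, against 74 with it. None of the 5 passed then, with Il1b at −1.30 (adjusted p = 0.202) and Il1rn at −1.28 (adjusted p = 0.0774). Without WT female dust lung 2 of day 2 only Il1rn passed, and with the common floor Il1r2 was at −0.65 (adjusted p = 0.0701). Among saline lungs none of the 5 passed between the days, as against 0.141% of tested genes, and Il1a, at the floor in 3 of 4 lungs of day 1, was at 1.20 (adjusted p = 0.532).

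The size of the dust difference was itself compared between days. Day 2 minus day 1, it was −2.50 for Il1rn (SE 0.61, adjusted p = 0.0415), the only 1 of the 5 to pass, and 1.69% of tested genes passed as lower. Il1a was at −2.41 (adjusted p = 0.0605), Il1b at −2.75 (adjusted p = 0.0745), Il1r2 at −1.95 (adjusted p = 0.0745) and Il1r1 at −0.20 (adjusted p = 0.712). The floor enters the values of Il1a, Il1r2 and Il1b. Of the 4 saline lungs of day 1, 3, 4 and 1 were at it for these genes, against 0, 3 and 0 of the 6 of day 2. The Il1rn call is close to the threshold. It was lost in 10 of the 15 alternatives that kept all lungs or left out a named set, with values from −2.84 to −2.01, and in 16 of 23 fits that left out 1 lung, among them the fit without the Fat-1 female dust lung of day 2 (−1.76, adjusted p = 0.142). Cartridges of the instrument followed the days for all but 4 lungs, and the day of extraction cannot be told apart from other features the lungs of a day shared.

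Markers of neutrophils moved with the same groups. Of 16 listed neutrophil markers 12 were on the panel, Cxcr1 and Elane were at the floor in every lung, and 7 of the 10 tested were higher in dust lungs, with 0 lower, against the 43.3% of tested genes. On day 2 alone 1 was higher (Fpr1), against 17.9% of tested genes, and on day 1 7 were, against 41.9%. Their summed values ran from 1936 to 18039 in dust lungs of day 2, from 6568 to 42044 in dust lungs of day 1, and from 1756 to 3699 in saline lungs. S100a8, a calcium-binding protein of neutrophils and monocytes, was higher in dust lungs by 2.49 on the log2 scale. Ly6g was at the floor in all 10 saline lungs and in 9 of 13 dust lungs, where it averaged 25.3. At 0.25 it did not pass (adjusted p = 0.208). Mpo (0.02) and Camp (−0.12), at the floor in most lungs, did not pass either. Markers of monocytes and interstitial macrophages, 10 on the panel, were all higher in dust lungs and 8 of 10 were so on day 2. Of 7 alveolar macrophage markers 5 were higher, on day 2 as well. Of 8 listed endothelial markers 2 were on the panel, and both were lower in dust lungs, as were 71 of 711 tested genes. Neither passed on day 2. Of 5 fibroblast markers 3 were higher, against the 43.3% of tested genes, and after median centring the other 2 passed as lower. The part of these cells in the IL-1 values was not tested.

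The balance of agonists to antagonist and decoy was taken per lung as the log2 of (Il1a + Il1b) over (Il1rn + Il1r2). Probes differ in how well they bind, so the balance compares lungs with each other and does not count molecules. It was lower in dust lungs, at −1.06 ± 0.52 (SD, n = 13), than in saline lungs, at −0.21 ± 0.66 (n = 10). The difference of −0.85 exceeded the pooled SD of 0.58 between lungs, but the ranges overlapped, with −1.58 to 0.07 in dust lungs and −1.81 to 0.82 in saline lungs. As linear ratios the means were 0.513 ± 0.210 in dust lungs and 0.938 ± 0.364 in saline lungs. Within day 2 the difference was −0.90, within day 1 it was −0.75, and without the 4 lungs whose labels disagree it was −0.68. No test was run on this score.

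**Figure D3:**
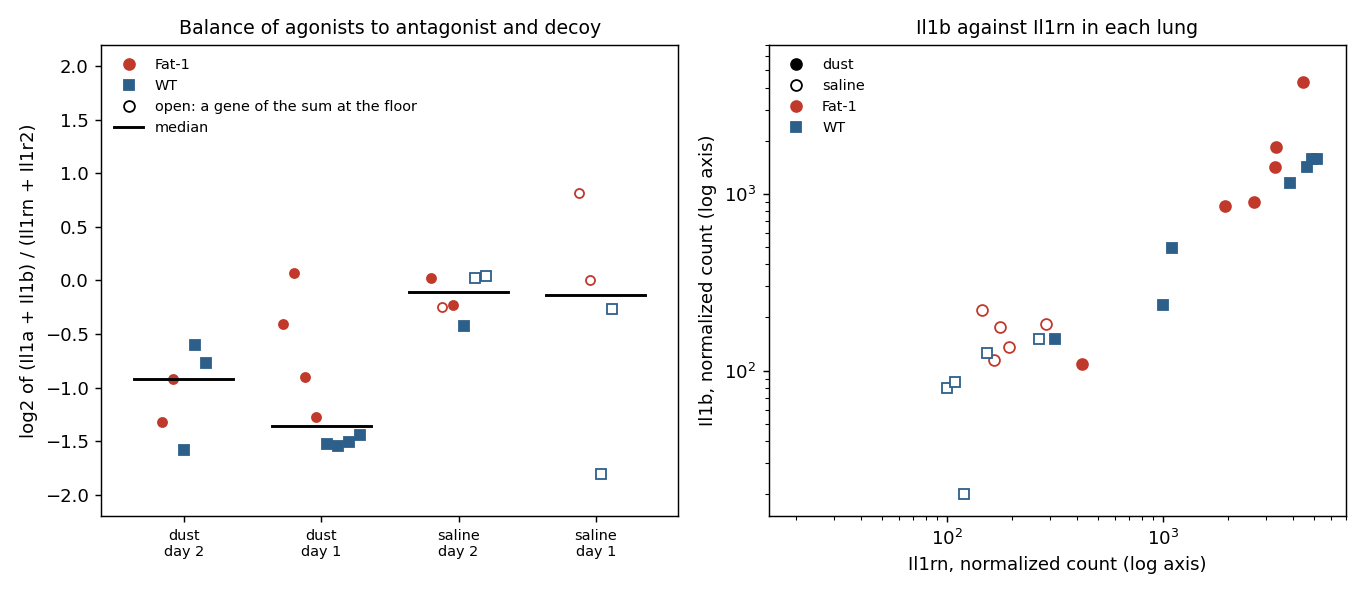
Left, the log2 balance of (Il1a + Il1b) over (Il1rn + Il1r2) in each of 23 lungs by exposure and extraction day, with medians as bars and open symbols where a gene of the sums was at the floor. Right, Il1b against Il1rn, both as normalized counts on log axes, filled for dust and open for saline lungs. Circles are Fat-1 and squares WT lungs. In the left panel 12 of 13 dust lungs lie below both saline medians, and Fat-1 female dust lung 2 of day 1, at 0.07, lies above them.

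The sums follow the gene with the higher counts. Il1rn made up 89.6% to 97.4% of the antagonist and decoy sum in dust lungs and 83.2%, 84.7% and 85.5% in the 3 saline lungs with Il1r2 above the floor. Il1b made up 61.4% to 86.5% of the agonist sum in dust lungs and 56.7% to 75.0% in the 7 saline lungs with neither agonist at the floor. The balance therefore mostly tracked Il1b over Il1rn, whose log2 ratio differed by −0.83 between dust and saline lungs. Floors matter most in the saline lungs, of which 3, all of day 2, had none of the 5 genes at the floor. WT female saline lung 1 of day 1, with Il1b, Il1a and Il1r2 all at the floor, had the lowest balance of any lung at −1.81, and values hidden by the floor could raise it to 0.11.

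Within dust lungs the balance was −0.79 ± 0.53 in Fat-1 (n = 6) and −1.28 ± 0.41 in WT lungs (n = 7). On day 2 the 2 Fat-1 dust lungs had −0.92 and −1.32, and the 3 WT dust lungs had −0.60, −0.77 and −1.58, which overlap. On day 1 the 4 Fat-1 dust lungs had balances of 0.07, −0.41, −0.90 and −1.28, and the 4 WT dust lungs had −1.44, −1.50, −1.52 and −1.55. By the code the groups did not overlap on that day. The lung at −0.90 is WT by its title and characteristics, and under those labels the groups overlap, while the lung at 0.07 is the one that stood apart from the other dust lungs. In saline lungs the balance was 0.07 ± 0.43 in Fat-1 and −0.49 ± 0.76 in WT lungs (n = 5 each). The Fat-1 saline lungs at 0.82 and −0.23 are WT by title and characteristics, and the other Fat-1 saline lungs lay between −0.25 and 0.02. Among these others, hidden values could put the male lung of day 1, with Il1a and Il1r2 at the floor, anywhere from −0.56 to 0.56. The lowest WT value, −1.81, came from the lung with Il1a, Il1b and Il1r2 at the floor, where hidden values could raise it to 0.11. The other WT saline lungs lay between −0.42 and 0.04.

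The genes whose pattern was most like each member were found by Pearson's r of log2 values over the 13 dust lungs, among 555 other genes above the floor in all of them. Day, cartridge and depth vary together over these lungs, so r is also given over the 8 lungs of day 1. Il1b and Il1r2 were each other's closest gene, at 0.979 over dust lungs and 0.982 on day 1. Il1b was next closest to Il4i1, which encodes an enzyme that oxidises phenylalanine, to Nlrp3, the sensor of an inflammasome, and to Malt1, a paracaspase of NF-kappa-B signalling, at 0.974, 0.973 and 0.965, or 0.904, 0.875 and 0.849 on day 1. Il1r2 was further close to Il4i1, S100a8 and Ceacam1, an adhesion molecule, at 0.959, 0.949 and 0.946, or 0.887, 0.864 and 0.942 on day 1.

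Il1a was closest to the neutrophil chemokine Cxcl1 (0.956), then to Il1b (0.935), Tnfaip3, a brake on NF-kappa-B (0.934), and the monocyte chemokine Ccl2 (0.929), with 0.802 to 0.872 on day 1. Il1rn was closest to Ptafr, the receptor for platelet-activating factor (0.981), and to the chemokine receptor Ccr1 (0.976), followed by Nlrp3 (0.964) and Csf3r, the receptor of granulocyte growth factor (0.961), with 0.716 to 0.946 on day 1. Between Il1a and Il1rn r was 0.810 over dust lungs but 0.186 over those of day 1. Il1r1 was closest to the matrix protein tenascin C, Tnc (0.894), then to Nfkbiz (0.880), Tmem173, the sensor adaptor STING (0.872), and the transcription factor Stat3 (0.872), with 0.624 to 0.750 on day 1. Between Il1r1 and Il1b r was 0.632, or 0.0424 on day 1.

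Other genes of the pathway were taken from 4 lists. In the list of the IL-1 family and its receptor chains, 5 of 18 were on the panel and 2 were higher in dust lungs, with 0 lower, a share of the 5 close to the 43.3% of all tested genes. Il33, an alarmin of the family, averaged 1496 ± 535 normalized counts in dust lungs and 917 ± 252 in saline lungs, or 0.63 as a log2 fold change (adjusted p = 0.00939, SE 0.19). Il1rap, the accessory chain, was at 0.47 (adjusted p = 0.0219), while Il18r1, a chain of the interleukin 18 receptor, was at 0.13 and Il1rl1, the receptor of Il33, at −0.15, and neither passed. After median centring none of these 5 passed.

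Of the signalling list, 7 of 22 were on the panel and 4 were higher, with 0 lower, against 43.3% of tested genes. Myd88, the adaptor of the receptor, averaged 299 ± 80.5 normalized counts in dust lungs and 172 ± 45.8 in saline lungs, a log2 fold change of 0.84 (adjusted p = 6.82e-04). Nfkbia and Nfkbiz, both inhibitors or modifiers of NF-kappa-B that it induces, were at 0.72 and 0.66, and Nfkb1, a subunit of it, was at 0.54. After median centring 2 of these 7 were higher and 3 lower, among them Traf6 at −0.48, the ligase that acts after Myd88, which was at −0.09 and did not pass without centring.

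Of the inflammasome and processing list, 5 of 19 were on the panel, 4 were tested and 3 were higher, with 0 lower, against 43.3% of tested genes. Nlrp3 averaged 319 ± 171 normalized counts in dust lungs and 79.6 ± 24.5 in saline lungs, or 1.82 as a log2 fold change (adjusted p = 3.84e-04, SE 0.35), and it passed on day 2 as well, at 1.11 (adjusted p = 0.0420). Casp1, a protease that cuts pro-IL-1 beta, was at 0.85 (adjusted p = 8.12e-04). Pycard, the adaptor between them, was at 0.50 (adjusted p = 0.0457) with 8 of 10 saline lungs at the floor. It did not pass after median or housekeeping centring (0.11 and 0.37). Ctsg, a neutrophil protease, was at the floor in all 13 dust lungs and 9 of 10 saline lungs, so its −0.01 cannot show whether it differed.

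Of the genes known to respond to IL-1, 15 of 19 were on the panel and 11 were higher in dust lungs, with 0 lower, against the 43.3% of the panel. Their median log2 fold change was 1.32. Cxcl3, which draws neutrophils, averaged 789.6 ± 453 normalized counts in dust lungs and 46.3 ± 35.2 in saline lungs, a log2 fold change of 4.11. Ccl20, which draws dendritic and T cells, was at 1.83 with 8 of 10 saline lungs at the floor. Cxcl5, which draws neutrophils, was at 1.94, and Tnfaip3 was at 1.495 (adjusted p = 1.52e-04). With the common floor Ccl20 was at 0.29 and Cxcl5 at 0.58. Ptgs2, which makes prostaglandins, Csf3, the granulocyte growth factor, Sele and Icam1, adhesion molecules of vessels, did not pass, at 0.09, 0.00, 0.40 and 0.30. By day, 4 of the 15 were higher on day 2, against 17.9% of tested genes, and 12 on day 1, against 41.9%. Mmp9 is in this list and among the neutrophil markers.

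**Figure D4:**
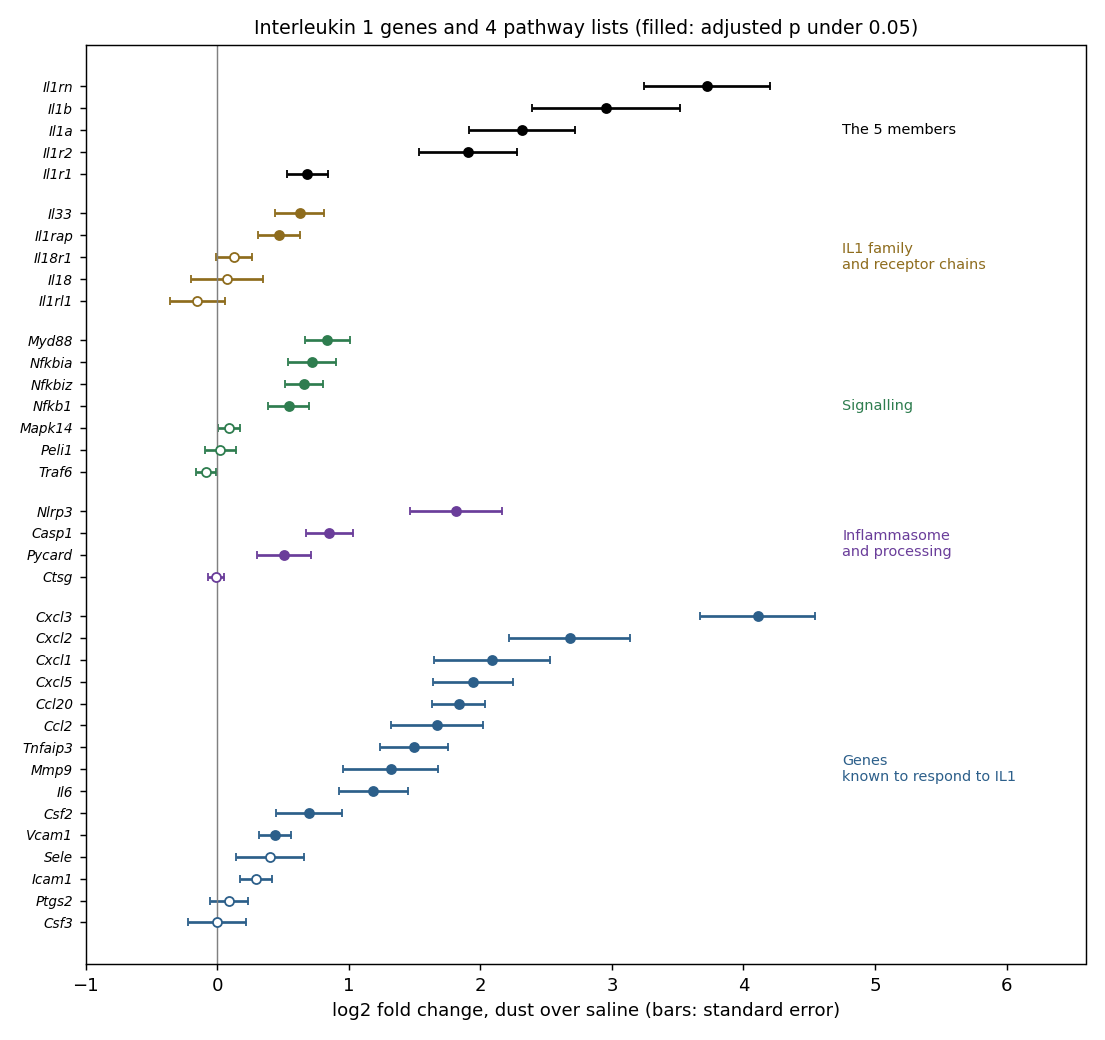
Log2 fold changes of dust over saline, with standard errors, for the 5 IL-1 genes and for the genes of 4 pathway lists that were tested; filled symbols passed an adjusted p of 0.05. No gene of the lists passed as lower in dust lungs, and the responding chemokine Cxcl3 and Il1rn had the highest values.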

How the data were processed

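RNA from 23 left lungs, 1 per mouse, was counted on a NanoString myeloid panel. The deposited values are a normalized signal: the authors multiplied each lung's probe counts by a factor and set counts under 20, and normalized values under 20, to 20, as read from the values, since the normalizing software is not given in the sources used here. Dividing by the factor (0.682 to 4.21) gave whole counts for 100% of values above the floor, within 0.1 of a count. Low counts are hidden, so log2(value + 1) was tested, over 711 of 754 genes, with limma 3.58.1 in R 4.3.3. The models had 8 means of genotype, sex and exposure, or 8 of genotype, exposure and extraction day (15 residual degrees of freedom in both), with 95% intervals and Benjamini-Hochberg adjustment at 0.05. Groups followed the code on each extract. Python 3.11.15, numpy 2.4.6, pandas 2.3.3 and matplotlib 3.10.9 did the rest. The fit was also run on simulated normal values that had no floor, no day or cartridge effects and no outlying lungs. That run cannot show how the fit behaves where these matter. The text names all 5 members, the 4 genes most like each, and 4 genes of each pathway list by smallest p, plus any that went against its list. Members and lists were chosen with earlier results of these data known. Alternatives changed the pseudocount, filter, floor, centring, trend, weights, labels, blocks and lungs. Each lung was counted once, so p-values rest on the spread between mice within groups. In the model with sex that spread also holds differences between days and cartridges.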

Additional observations from a re-analysis of the deposited data

Results flagged for a closer look

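Among 48 groups of lungs, 6 held a lung far from the others, by a rule that chance meets in about 1 in 20 independent groups. These groups share lungs, and the balance is built from the genes, so the 6 cannot be set against that share. Il1rn was 420.85 normalized counts in the Fat-1 female dust lung of day 2, while the other 5 Fat-1 dust lungs lay between 1947 and 4432. Il1a was at the floor of 20 in the Fat-1 male saline lung of day 1, against 59.5 to 87.45 in the other Fat-1 saline lungs, and that floor can hide values up to 84.26. Il1a was 73.2 in the Fat-1 female saline lung of day 1, a lung with labels that disagree, while the other saline lungs of day 1 were at the floor of 20, which can hide values up to 84.26, 64.8 and 45.4 in them. Il1r2 was 45.28 in WT female saline lung 1 of day 2, the lung with the highest negative controls, and at the floor of 20 in the other WT saline lungs, which can hide values up to 64.8. Tied values at the floor set both of these gaps, so neither lung is shown to differ from the others. The balance of agonists to antagonist and decoy was 0.82 in the Fat-1 female saline lung of day 1, against −0.25 to 0.02 in the other Fat-1 saline lungs. Values hidden by the floor could put that lung at 0.66 to 1.00, and the Fat-1 male saline lung of day 1 at −0.56 to 0.56. In the WT female saline lung of day 1 the balance was −1.81, against −0.42 to 0.04 in the other WT saline lungs. Values hidden by the floor could raise it to 0.11.

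The dust difference of Il1rn itself differed between days, by −2.50 on the log2 scale (day 2 minus day 1, limma adjusted p = 0.0415). This call is close to the threshold and was lost in most alternatives and most fits that left out 1 lung, as given above. Without the Fat-1 female dust lung of day 2 the value was −1.76. Il1b (−2.75), Il1a (−2.41) and Il1r2 (−1.95) had differences of like size that did not pass. Their sizes depend in part on the floor, where 1, 3 and 4 of the 4 saline lungs of day 1 lay for these genes.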

How the results depend on the processing

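All 5 IL-1 genes passed between dust and saline in every alternative tried, and the balance kept its direction, from −1.03 to −0.73 when 1 lung was left out. Depth limits Il1r2 most, since 7 saline lungs are at the floor. The 5 genes called fell to 1 in Fat-1 lungs under the titles' groups and without the 4 lungs whose labels disagree, and to 1 to 5 in WT lungs when 1 lung was left out. On day 2, 2 were called. That count was 1 under median or housekeeping centring, the characteristics' groups, without the 4 lungs, the replicate block and an added sex term, 0 under the titles, 5 under lung weights, and 1 to 5 when 1 lung was left out. In day by exposure 1 was called. It was 0 with no filter, the common floor, lung weights, without the 2 lungs in doubt, the cartridge block, the replicate block and the sex term, and 0 to 4 when 1 lung was left out. Among dust lungs by day 3 were called, and 0 to 4 when 1 lung was left out.

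Replicate numbers did not pair lungs: same-day lungs of the same number had deviations with r from −0.41 to 0.70 (median −0.03 over 65 pairs). With the replicate block Il1rn was at −2.70 in day by exposure (adjusted p = 0.0515).

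Signs turned in results that had not passed. Fat-1 minus WT in dust turned under lung weights for Il1b (−0.0385), Il1rn (−0.61) and Il1r2 (−0.14), without the 2 lungs in doubt (−0.0832, −0.31 and −0.27), and for Il1rn with the day block (−0.0664) and the replicate block (−0.18). Leaving out 1 lung gave −0.0832 to 1.24 for Il1b, −0.38 to 0.54 for Il1rn, −0.0581 to 0.19 for Il1r1 and −0.27 to 0.69 for Il1r2, and in saline −0.26 to 0.31 for Il1r2. In genotype by exposure Il1a was at 0.0848 with log2(value + 10), 0.66 with the common floor, 0.0037 with housekeeping centring, 0.27 with the characteristics, 0.36 with the titles and 0.0726 with the cartridge block. There the titles gave 0.28 for Il1b and 0.17 for Il1rn, and Il1r2 was at −0.23 under lung weights and −0.58 without the 2 lungs. Leaving out 1 lung gave −0.50 to 0.56 for Il1a, −1.39 to 0.10 for Il1b, −0.70 to 0.22 for Il1rn and −0.29 to 0.66 for Il1r2. In sex by exposure lung weights gave 0.15 for Il1a and 0.27 for Il1b. Il1b was at 0.10 without the 4 lungs, 0.011 without the 2, 0.0915 with the day block, 0.29 with the replicate block and −0.88 to 0.62 when 1 lung was left out, and Il1r2 was at 0.30 with the common floor. Il1r1 ran from −0.49 to 0.0946 in day by exposure, from −0.50 to 0.0786 between days in dust and from −0.10 to 0.0644 in saline when 1 lung was left out. Between days in saline the cartridge block gave −0.00935 for Il1b and −0.23 for Il1rn, and Il1r1 was at 0.0417 with the characteristics, 0.0823 with the titles, 0.0924 without the 4 lungs and 0.0695 with the replicate block. The cause was not tested.

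Counts over the panel moved too. Fat-1 minus WT in dust called 97 genes under lung weights, none of them of the 5, and 0 otherwise, other than 0 to 5 when 1 lung was left out. Fat-1 minus WT in saline called 15 and genotype by exposure 2 without the 2 lungs. Dust against saline called 271 in Fat-1 lungs, but 167 with the characteristics, 75 with the titles, 160 with the replicate block and 69 without the 4 lungs. In WT lungs it called 251, but 155 with the titles, 139 without the 4 lungs and 388 under lung weights. On day 2 it called 132, but 0 with the titles, 43 without the 4 lungs, 205 under lung weights and 220 without the 2. Day by exposure called 12, but 6 with the cartridge block, 3 with the common floor, 7 under lung weights, 4 with no filter, 4 without the 2 lungs and 19 without the 4. Dust lungs by day gave 74 genes, but 121 with the common floor, 115 with the titles and 26 under lung weights. When 1 lung was left out that count ran from 2, without the Fat-1 female dust lung of day 2, to 141, without the Fat-1 male dust lung of day 2. Without that male lung day by exposure called 69 and dust against saline on day 2 called 38, and without the Fat-1 female saline lung of day 1 day by exposure called 37. Saline lungs by day gave 1, but 0 with the cartridge block, 4 with the common floor, 3 with the characteristics and 2 with the titles.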
